A study of Mus musculus with 5 samples.

Results

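The nuclear-encoded subunits of respiratory complex I were measured by RNA sequencing in the brains of old mice. They were taken as the protein-coding genes whose symbols begin with Ndufa, Ndufb, Ndufc, Ndufs or Ndufv followed by a number, together with Ndufab1. The Ndufaf genes, which encode assembly factors, are not subunits and were treated separately. This gave 37 genes out of 47729 in the count table. The study holds brain RNA from 5 male mice of the inbred strain C57BL/6 at 30 months of age, with no treatment or engineered allele named in the labels. All 5 belong to 1 group and carry the label numbers 7, 8, 9, 10 and 11. No other age or tissue was analysed here, so levels and differences between mice could be described, while a change with age could not. The labels number the samples without saying how each was obtained, so part of any SD or p-value below may reflect handling of the samples and not the animals.

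Complex I (NADH:ubiquinone oxidoreductase) is the entry point of electrons from NADH into the mitochondrial respiratory chain. Its matrix arm takes up electrons in the N module, passes them along iron-sulfur clusters and hands them to ubiquinone in the Q module, and its membrane arm pumps protons. Core subunits, which have bacterial counterparts, carry out the catalysis, and accessory subunits surround them and are needed for assembly and stability. Neurons depend heavily on this chain for ATP, and inherited defects of the complex often cause brain disease such as Leigh syndrome.

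The libraries held between 15392006 and 18723390 counts, and every one of the 37 genes was counted in every library, with 98 to 4829 counts per gene and library. Markers of the tissue were present: the 6 neuronal markers summed to 547 to 796 RPKM (reads per kilobase of exon, scaled to library size), the 5 oligodendrocyte markers to 538 to 749 RPKM and the 5 astrocyte markers to 288 to 356 RPKM. The 3 markers of heart and skeletal muscle summed to 3.42 to 5.38 RPKM. The 4 markers of the cerebellum differed most between mice, with summed levels of 3.85, 0.357, 0.171, 13.0 and 0.370 RPKM in mice 7 to 11. In bulk tissue, fewer cells of a type and less RNA per cell cannot be told apart.

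Promoter sequences come before the levels, because a shared sequence at the start of 4 subunit genes is a feature that the choice by symbol did not use. RefSeq windows of 300 bases (250 before and 50 after the annotated start, mouse build GRCm38.p6) were found for 33 of the 37 genes. They were searched on both strands for the exact letters of 4 elements. A gene counted as holding an element if any of its windows did. There were on average 1.06 windows per subunit gene and 1.28 per gene at large, so more sequence was searched for the latter. The elements bound by YY1 and NRF1 are spelled by the capitals in the sequences below; CCGGAAG is bound by ETS family factors such as GABP, and GGGCGG by SP1. None of the 4 contains another. The YY1 element stood in a window of 4 of the 33 genes (12.1%), beside 178 of 11172 genes with a window (1.59%). All 4 matches lay on the strand of the gene, between 25 and 36 bases after the annotated start, and in each the element holds the annotated start codon. The 4 stretches follow 5′ to 3′ along the gene, with the element in capitals. They lie at chr6:126849095-126849124 (minus strand) for Ndufa9, chr13:114388045-114388068 (minus) for Ndufs4, chr13:73328433-73328458 (minus) for Ndufs6 and chr10:80249464-80249493 (plus) for Ndufs7.
Ndufa9: ttgtgggagAAGATGGCGGCcgccgtccgc
Ndufs4: gcctacaggAAGATGGCGGCggtc
Ndufs6: gtcaccggcAAGATGGCGGCggtgct
Ndufs7: gccgaggccAAGATGGCGGCgctggcgggt
The NRF1 palindrome was found for 1 gene (3.03%, beside 2.15% of all genes), Ndufa11, a membrane arm subunit, 60 bases before the start at chr17:56717672-56717741 (plus strand).
Ndufa11: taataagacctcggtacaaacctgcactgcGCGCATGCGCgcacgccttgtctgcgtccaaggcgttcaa
The ETS element was found for 4 genes (12.1%, beside 17.9% of all genes), namely Ndufs3, Ndufs8, Ndufb6 and Ndufb7. The SP1 element was found for 15 genes (45.5%, beside 67.4%). A match describes letters in a window and not binding, and a window without a match says only that these letters are not in it.

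Some subunit genes start next to another gene that points away from them. A protein-coding neighbour on the opposite strand whose start lay within 1000 bases was annotated for 9 of the 37 genes (24.3%), beside 1314 of 14242 protein-coding genes measured (9.23%). Ndufa7 started 10 bases from Rps28, a ribosomal protein gene, Ndufb9 18 bases from Tatdn1, and Ndufa8 52 bases from Morn5. Ndufa1, Ndufa2, Ndufa4, Ndufa5, Ndufb3 and Ndufv3 lay 61 to 312 bases from their partners.

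The 37 genes together took 0.197%, 0.221%, 0.192%, 0.184% and 0.235% of the counts in mice 7 to 11, a mean of 0.206% ± 0.0215 (SD, n = 5). Mouse 11 was highest and mouse 10 lowest, and the widest 95% Wilson interval reached only 0.0024 percentage points to either side, so the mice differed by more than counting error, which is all that these intervals cover. Summed levels were 1363, 1558, 1285, 1193 and 1645 RPKM in the same order, with a mean of 1409 ± 188 RPKM. By mean RPKM, 15 of the 37 genes (40.5%) stood in the top 10% of the 14242 protein-coding genes compared, a class that by definition holds 10% of them. The median gene of the set reached 27.4 RPKM.

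The spread of levels among subunits depended on the transcript length used. Nearly all subunits are present in equal number in the finished complex, while mean RNA levels ran from 3.32 RPKM for Ndufab1 to 160.3 RPKM for Ndufb9, a 48.3-fold range. These values divide counts by the length of all annotated exons, which counts exons of rare transcripts in full. With the length of the shortest principal transcript, a length chosen after the data were seen, the range was 21-fold, from 12.5 RPKM for Ndufb4 to 262 for Ndufa4. The SD of the log2 levels over the 37 genes was 1.28 with the first length and 0.96 with the second, and the median rose to 57.0 RPKM. For 12 of the 37 genes, the length of all exons was over 2 times that of the principal transcript. Gene coordinates are those of GENCODE M21 on GRCm38, and levels below are given with both lengths where they differ by over 1.5 times.

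**Figure D1:**
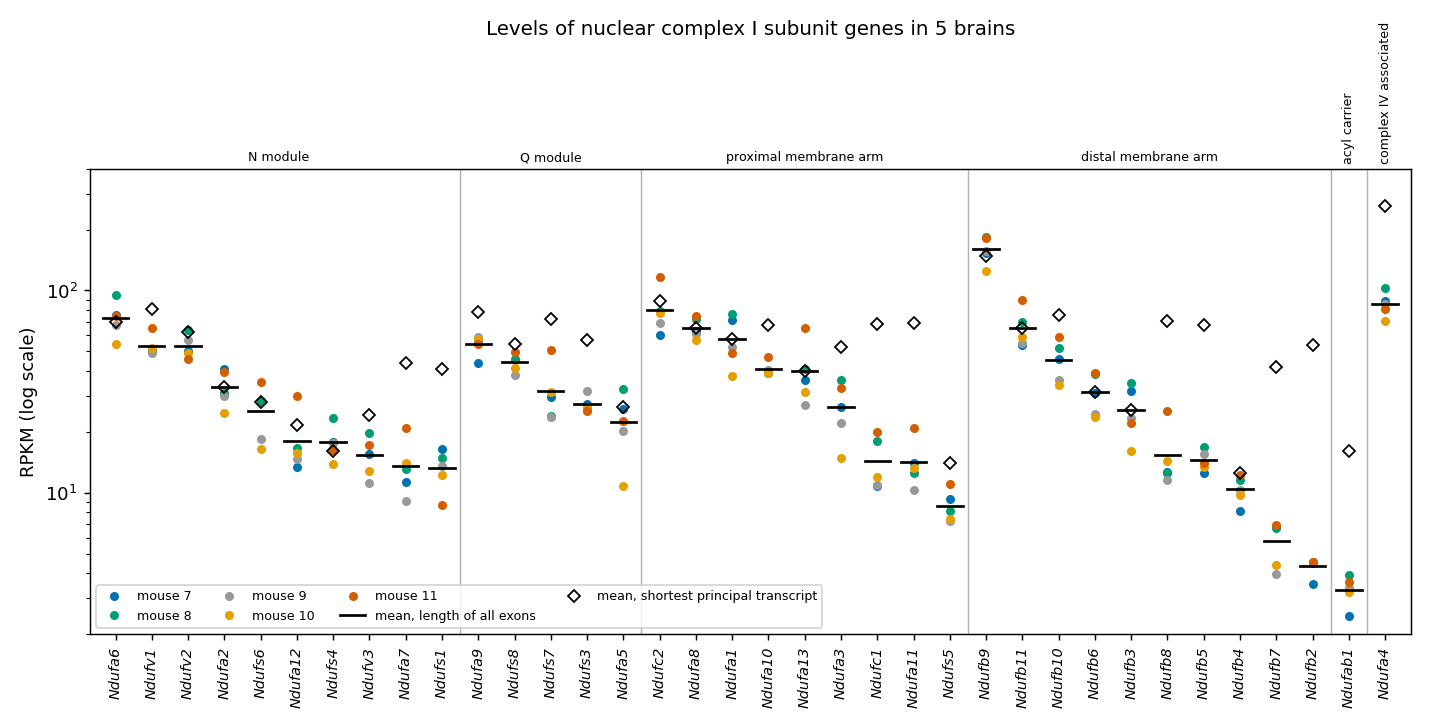
Mean and individual levels of 36 of the 37 genes, grouped by module and ordered by mean; the y axis is RPKM on a log scale, coloured points are single mice, black bars are means with the length of all exons, and open diamonds are means with the shortest principal transcript. Ndufb9 is the highest by bars at 160.3 RPKM, and the diamonds of Ndufb2 and Ndufb7 lie far above their bars.

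In the N module, which oxidises NADH, the core subunits are Ndufv1, which binds NADH and its flavin cofactor, and the iron-sulfur proteins Ndufv2 and Ndufs1. Ndufv1 (chr19:4007384-4012806) had 51.5, 49.4, 49.3, 52.0 and 65.0 RPKM in mice 7 to 11. The first 4 mice were almost level and mouse 11 stood above them, so that the mean was 53.4 ± 6.56 RPKM (81.1 with the principal transcript). Ndufv2 reached a like mean of 53.2 ± 7.23 RPKM, but with mouse 8 highest at 63.9 and mouse 11 lowest at 45.8. Ndufs1 (chr1:63143596-63176833), the largest subunit, was the lowest of the module by the length of all exons, at 16.4, 14.9, 13.6, 12.2 and 8.74 RPKM. Mouse 11 was lowest here, in contrast to Ndufv1, and the mean of 13.2 ± 2.92 RPKM became 41.1 with the principal transcript, because its annotated exons span 8086 bases against 2590. With that length Ndufs4 was the lowest of the module at 16.1 RPKM.

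Among the accessory subunits of the N module, Ndufa6, a protein of the LYR family that anchors an acyl carrier protein, was the highest. It had 75.9, 94.7, 67.4, 54.2 and 74.8 RPKM, with mouse 8 high and mouse 10 low. Its level is uncertain, since the mean of 73.4 ± 14.7 RPKM fell to 22.8 with the exon length of GENCODE M21. Ndufa12, the subunit that takes the place of the assembly factor Ndufaf2 as the complex matures, had 13.4, 16.6, 14.6, 15.7 and 30.1 RPKM (mean 18.1 ± 6.82). Mouse 11 had by far the highest value, and the other 4 lay close together. Ndufs4, whose loss in mice gives a model of Leigh syndrome, had 17.8 ± 3.60 RPKM (10.1 with the M21 exon length), and the zinc-binding Ndufs6 had 25.4 ± 7.74. Ndufa2, Ndufa7 and Ndufv3 had means of 33.3, 13.6 and 15.3 RPKM; with the principal transcript the last 2 reached 43.9 and 24.1.

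In the Q module, which reduces ubiquinone, the core subunit Ndufs7 holds the last iron-sulfur cluster before ubiquinone. Ndufs7 (chr10:80249121-80256794) had 29.6, 23.9, 23.7, 31.5 and 50.6 RPKM, a mean of 31.8 ± 11 RPKM (72.2 with the principal transcript). Here mouse 11 stood far above the other 4. The core subunits Ndufs3 and Ndufs8 were among the most even. Ndufs3 had 27.5, 25.7, 31.8, 26.5 and 25.3 RPKM, a mean of 27.4 ± 2.60 (57.0 with the principal transcript). Ndufs8, an iron-sulfur protein, had 45.5, 46.1, 38.3, 41.6 and 49.5 RPKM. For both genes all mice lay within 1.29-fold of each other. With trends removed the SD of log2 CPM was 0.11 for Ndufs8 but rose from 0.13 to 0.23 for Ndufs3, near the median of the set at 0.25.

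Among the accessory subunits of the Q module, Ndufa5 had the largest SD of log2 CPM of the 37 genes, 0.60 (0.55 with GC and length trends removed, where Ndufb8 was higher at 0.57). Without mouse 10 it was 0.28, below Ndufb8 at 0.57 and Ndufa12 at 0.56. Ndufa5 had 26.0, 32.7, 20.1, 10.8 and 22.6 RPKM (mean 22.5 ± 8.08), a 3.05-fold range between mouse 8 and mouse 10. Mouse 10 had the lowest value by a wide margin, and its deviation from the gene's mean was -0.99 on the log2 CPM scale, or -0.90 after GC and length trends were removed (below). Ndufa9, which binds NADPH, had 54.2 ± 6.05 RPKM, with mouse 7 lowest at 43.7.

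In the proximal part of the membrane arm, all subunits encoded in the nucleus are accessory. Ndufc2 (chr7:97400003-97407802) was the highest at 59.9, 78.8, 69.3, 77.0 and 117 RPKM (mean 80.4 ± 21.7), and mouse 11 stood apart at the top. Ndufs5, 1 of 4 subunits with twin CX9C motifs that form disulfides in the intermembrane space, was the lowest at 9.27, 8.16, 7.27, 7.39 and 11.1 RPKM (mean 8.63 ± 1.57, or 14.1 with the principal transcript). Ndufa13, also known as GRIM-19, had 35.9, 40.9, 27.1, 31.4 and 65.5 RPKM (mean 40.1 ± 15.1). Mouse 11 was again highest, and mouse 9 lowest. With trends removed its deviation in mouse 11 went from 0.84 to 0.15, mouse 8 was highest at 0.20, and the SD of log2 CPM went from 0.51 to 0.19. Ndufa3, a small membrane protein, had 26.5, 35.9, 22.2, 14.8 and 32.9 RPKM (mean 26.5 ± 8.46, or 52.5), with mouse 10 lowest. Ndufa10, a nucleoside kinase-like subunit, was among the steadiest with 39.3, 40.1, 40.5, 38.9 and 46.7 RPKM (mean 41.1 ± 3.20, or 67.8).

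Ndufa1, a single-span membrane subunit encoded on the X chromosome (chrX:37187588-37191163), had 71.5, 76.8, 52.7, 37.6 and 49.2 RPKM. Mice 7 and 8 were high and mouse 10 low, and in contrast to most of the set mouse 11 was not high. The other X-linked subunit gene, Ndufb11 of the distal membrane arm (chrX:20615326-20617619), had 53.9, 69.9, 54.8, 58.6 and 89.9 RPKM, with mouse 11 highest. The 2 X-linked genes thus had similar means, 57.6 ± 16.2 and 65.4 ± 15.1 RPKM, and different orders of the mice. The remaining proximal genes had means of 65.5 RPKM for Ndufa8, a CX9C protein, 14.4 for Ndufc1 and 14.2 for Ndufa11. With the principal transcript Ndufc1 and Ndufa11 reached 68.2 and 69.3 RPKM, and with the M21 exon length Ndufa11 was at 34.6.

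In the distal part of the membrane arm, Ndufb9, the other LYR protein, had the highest level of the 37 genes by the length of all exons. Ndufb9 (chr15:58933756-58939488) had 154, 184, 156, 125 and 182 RPKM, with mouse 10 lowest, and its mean of 160.3 ± 24.3 RPKM fell to 101 with the M21 exon length. Ndufb2, a small membrane subunit (chr6:39592574-39603382), was the lowest of the distal part by the length of all exons, at 3.54, 4.48, 4.56, 4.52 and 4.54 RPKM. Mouse 7 stood below 4 nearly equal values. Its mean of 4.33 RPKM became 53.5 with the principal transcript, since its annotated exons span 5628 bases against 455. With that length Ndufb4 was the lowest of the distal part at 12.5 RPKM. Ndufb8 had 12.6, 12.5, 11.5, 14.3 and 25.4 RPKM (mean 15.3, or 70.6 with the principal transcript), with mouse 11 well above the rest. The CX9C proteins Ndufb7 and Ndufb10 had 5.75 ± 1.44 and 45.4 ± 10.5 RPKM, which became 41.7 and 75.5 with the principal transcript. Ndufb3, Ndufb4, Ndufb5 and Ndufb6, all small membrane subunits, had means of 10.4 to 31.4 RPKM. Within them, Ndufb4 was at 6.33 RPKM with the M21 exon length and Ndufb5 at 67.2 with the principal transcript.

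Ndufab1 and Ndufa4 stand outside the modules. Ndufab1 is the mitochondrial acyl carrier protein, which also serves fatty acid synthesis and iron-sulfur cluster assembly, and it had 2.47, 3.93, 3.39, 3.23 and 3.60 RPKM with mouse 7 lowest. Its mean was 3.32 RPKM, or 16.1 with the principal transcript (6882 bases of exon against 1416). Ndufa4, named as a complex I subunit but later assigned to complex IV, had 89.0, 103, 85.7, 70.8 and 81.1 RPKM, a mean of 85.9 ± 11.7 (262 with the principal transcript). Mouse 8 was highest and mouse 10 lowest. Its paralog Ndufa4l2 had 2.20 ± 0.998 RPKM. Without Ndufa4 the set took 0.194% of counts.

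No subunit gene was called more variable between mice than other genes of its level. In edgeR's quasi-likelihood fit, with each gene's dispersion compared with those of genes of like mean and Benjamini-Hochberg adjustment over 16318 genes, 0 of the 37 genes were called, and 0 of all genes tested (0%). Even the cerebellar marker Cbln3, with 0 to 391 counts over the mice, was not called (edgeR adjusted p 0.585). A lack of calls therefore says little on how even the subunit genes were. At an unadjusted p under 0.05, the same edgeR quasi-likelihood fit gave 3 of 37 genes (8.11%), beside 4.82% of all genes tested. Their unadjusted p from edgeR was 0.0380 for Ndufa13, 0.0423 for Ndufb8 and 0.0435 for Ndufa5. The count of 3 was not stable, as follows, with the share of all genes tested in each setting in brackets. Of the 37 genes it was 6 without mouse 7 (all genes 3.56%), 1 without mouse 8 (5.17%) or mouse 9 (4.61%) and 5 without mouse 11 (6.29%). The count was 7 with GC and length trends removed (all genes 5.57%) and 0 when the mean count had to be 50 or more (4.75%). The smallest adjusted p of a subunit gene was 0.981, and it lay between 0.268 and 0.984 over the alternatives. The median SD of log2 CPM (counts scaled to library size with TMM factors) was 0.32 for the subunits and 0.30 for all genes tested. Within the subunits it was 0.17 for the 7 core genes and 0.35 for the 30 accessory genes, or 0.16 and 0.27 with GC and length trends removed. By length, it was 0.37 for the 24 subunit genes with a principal transcript under 1000 bases and 0.20 for the 13 longer ones. These differences were not tested.

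Although single genes were not called, many subunit genes deviated together in a mouse. The mean deviation over the 37 genes from their own means was -0.05, 0.13, -0.14, -0.24 and 0.31 on the log2 CPM scale in mice 7 to 11, with an SD over mice of 0.22. In mouse 11, 30 of 37 genes lay above their own mean, beside 52.6% of all genes tested, and in mouse 10 only 4 did, beside 49.0%. Mouse 11 had the highest value of 23 genes (62.2%), beside 37.6% of all genes tested. Mouse 10 had the lowest value of 15 genes (40.5%), beside 13.1% of all genes. All 15 were accessory, and none of the 7 core genes was lowest in mouse 10. With so few core genes and a share of 13.1% over all genes, a count of 0 does not set them apart from genes at large. The difference between core and accessory genes in this count was not tested.

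**Figure D2:**
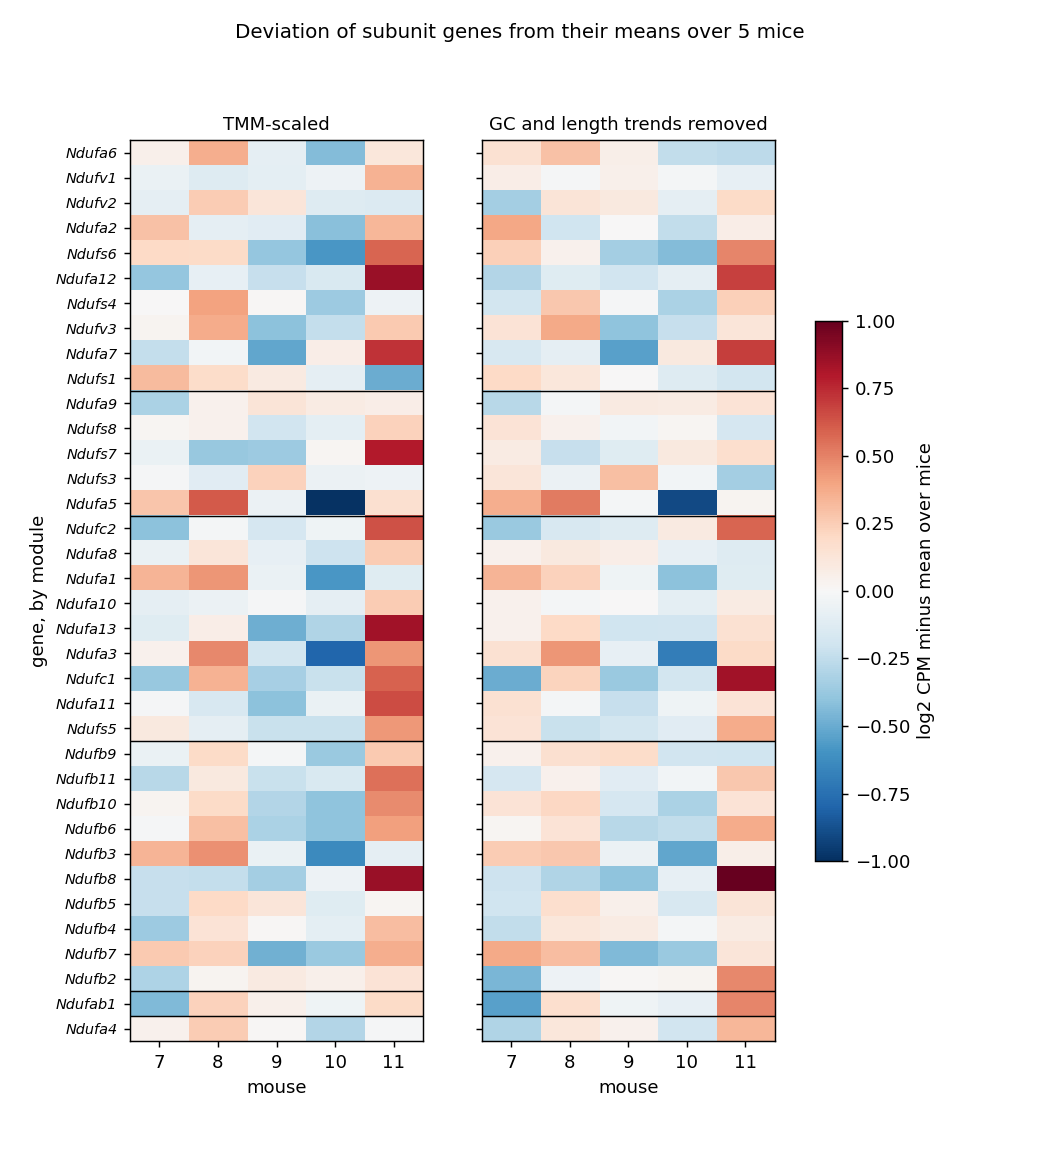
Deviation of 36 of the 37 genes from their means over the 5 mice, as log2 CPM by colour, with rows ordered as in the plot of levels and columns for mice 7 to 11; the left panel is TMM-scaled and the right panel has GC and length trends removed. The column of mouse 11 is mostly red (of all 37 genes, 30 lie above their mean on the left) and that of mouse 10 mostly blue (4 above).

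The libraries differed in their trends with GC content and length, and removing these trends changed the size of the deviations. Over all genes, the deviation in mouse 11 correlated with GC content with r = 0.64 (16264 genes), and over the 37 subunits with r = 0.48. In mouse 10 there was no such correlation with GC content, with r = -0.00 over all genes and 0.04 over the subunits. For mouse 10, the deviation of the 37 genes correlated with log2 exon length with r = 0.54, beside 0.09 over all genes; with the length of the principal transcript r was 0.29 and 0.11. These correlations are across genes of 1 library, which are not independent, and are given as descriptions. After smooth trends on GC and length were removed from each library, the mean deviations of the 37 genes were -0.02, 0.09, -0.09, -0.17 and 0.19. The order of the mice was kept and the SD fell from 0.22 to 0.14. Mouse 11 then had the highest value of 16 genes (43.2%), beside 28.1% of all genes tested, and mouse 10 the lowest of 9 (24.3%), beside 15.9%. For complexes II to V these counts were 22 and 17 of 44 genes. They were 317 and 225 of the 892 other short genes, and 11 and 7 of the 24 short subunit genes.

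**Figure D3:**
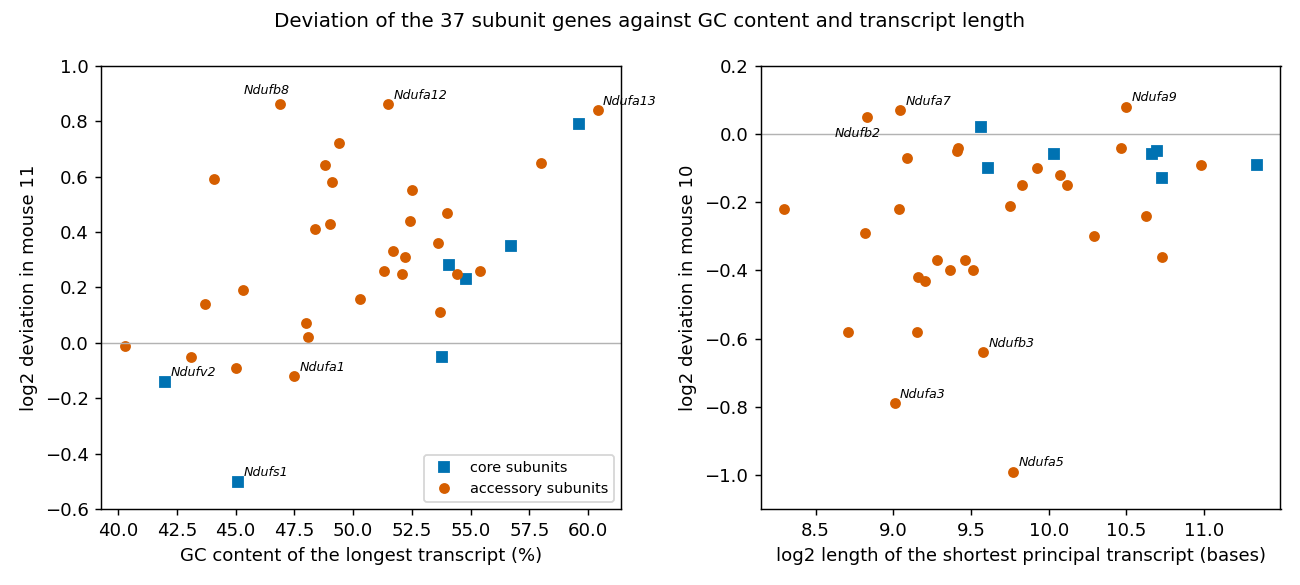
Deviation of the 37 genes in mouse 11 against GC content in percent (left, r = 0.48) and in mouse 10 against log2 length in bases of the shortest principal transcript (right, r = 0.29); squares are core and circles accessory subunits. In mouse 10 the 7 core genes lie between -0.13 and 0.02, and Ndufa5 is lowest at -0.99.

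In every mouse, the TMM-scaled mean deviation of the core genes was smaller in size than that of the accessory genes. Opposite deviations cancel in such a mean: in mouse 11 single core genes ran from -0.50 for Ndufs1 to 0.79 for Ndufs7. The 7 core genes deviated on average by -0.01, -0.02, -0.04, -0.07 and 0.14 in mice 7 to 11, and the 30 accessory genes by -0.07, 0.17, -0.17, -0.28 and 0.35. With trends removed the core genes were at 0.03, 0.00, 0.05, -0.03 and -0.06, so that mouse 11 was no longer high for them, while the accessory genes were still at 0.25 in mouse 11 and -0.21 in mouse 10. By module, the SD over mice was 0.20 for N, 0.16 for Q, 0.29 for the proximal and 0.24 for the distal membrane arm. For the Q module the deviation in mouse 11 went from 0.25 to -0.03 with trends removed, for the proximal arm from 0.44 to 0.23, for the distal arm from 0.33 to 0.25 and for the N module from 0.25 to 0.20. The 4 CX9C genes were all highest in mouse 11, with a mean deviation of 0.38, which became 0.13 with trends removed and left 1 of the 4 highest there. The core genes also had longer exons, with a median of 2178 bases against 1230 for the accessory genes, and core status was not separated from length. The difference between core and accessory genes was not tested.

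Other genes of the respiratory chain and short genes at large were likewise highest in mouse 11 on average. The 44 measured nuclear genes of complexes II to V deviated by -0.07, 0.13, -0.14, -0.24 and 0.31, the same to 2 decimals as the complex I genes in every mouse but mouse 7. The 77 measured mitochondrial ribosomal protein genes stood at -0.02, 0.01, -0.08, -0.09 and 0.18. Most subunits are small proteins with short mRNAs, and a comparison chosen after the data were seen used 892 other protein-coding genes with a principal transcript under 1000 bases. These were at -0.04, 0.08, -0.16, -0.14 and 0.26, beside the 24 subunit genes of that length at -0.02, 0.14, -0.20, -0.30 and 0.38. The signs were the same in every mouse, and the subunits lay further from 0 in mice 10 and 11. With trends removed the other short genes were at -0.07 in mouse 10 and 0.09 in mouse 11, and the short subunits at -0.21 and 0.23. The 13 longer subunit genes had a smaller range, from -0.13 in mouse 10 to 0.18 in mouse 11. All of these lists were measured in the same 5 libraries, so their deviations are not independent, and no difference between them was tested.

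**Figure D4:**
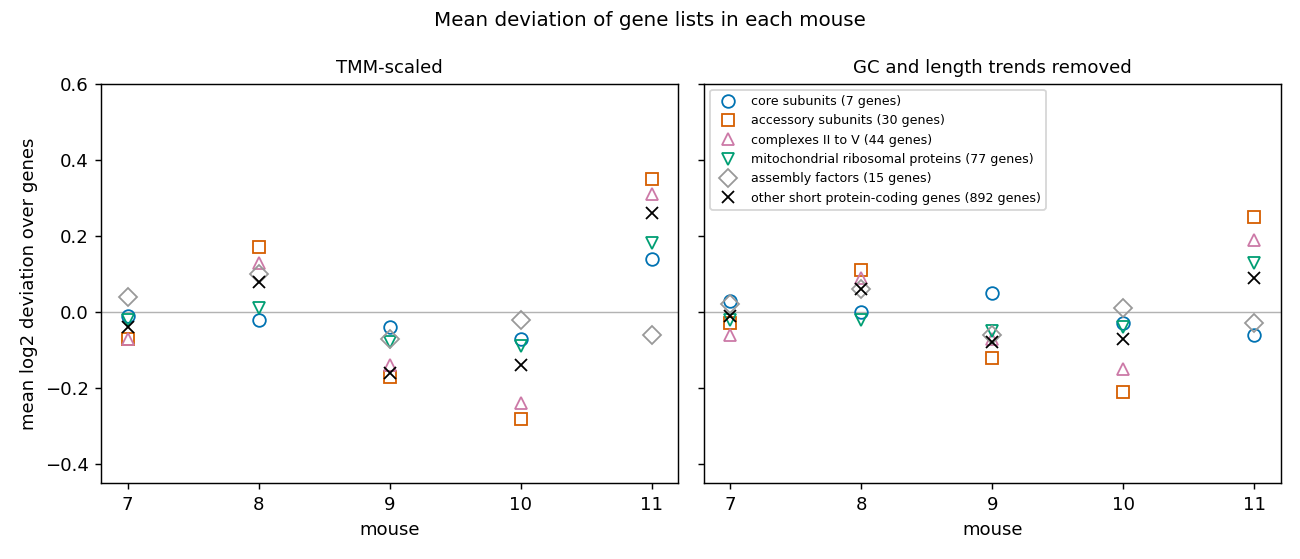
Mean deviation in log2 CPM of 6 gene lists in mice 7 to 11, before (left) and after (right) removal of GC and length trends; symbols mark lists. In mouse 11 accessory subunits (0.35), complexes II to V (0.31) and other short genes (0.26) lie well above 0 on the left, while core subunits (0.14) are lower and assembly factors lie at -0.06.

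Markers of other cells moved with the same mice in part. In mouse 11, where the subunits were high, the mean deviation was 0.36 for 3 markers of excitatory neurons and 0.54 for 3 of choroid plexus, and with trends removed it was 0.34 and 0.53. It was 0.66 for 3 erythroid markers, whose summed level ran from 45.4 to 145 RPKM, and 0.32 with trends removed. For 3 markers of oligodendrocyte precursors it went from 0.38 to 0.06, and for 3 of endothelium from 0.31 to 0.11. Within these lists single genes differed: Cldn5 was highest in mouse 11 at 29.7 RPKM, while Pecam1 (3.66 RPKM) and Pdgfra (5.36 RPKM) were lowest there. The 6 general neuronal markers were at -0.13 and turned to 0.10 with trends removed. Markers of astrocytes, oligodendrocytes and microglia were at -0.07, -0.05 and -0.09, and at 0.01, 0.01 and -0.04 with trends removed. In mouse 10, where the subunits were low, the cerebellar markers were at 3.62, and in mouse 7 at 1.89. No defining marker of these lists was at 0 in all libraries, but the cerebellar genes Cbln3 and Gabra6 were at 0 in mouse 9, and Gabra6 also in mouse 11. The part of these cells in the subunits' deviations was not tested.

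Assembly factors and regulators of the complex had smaller mean deviations than its subunits; the difference was not tested. The 15 assembly factors, which put the modules together and are not kept in the finished enzyme, summed to 118 ± 6.21 RPKM, and 0 were called. Their mean deviations were 0.04, 0.10, -0.07, -0.02 and -0.06, and 4 of the 15 were highest in mouse 11. Ecsit, which acts in the assembly of the membrane arm, was the highest at 16.6 ± 2.38 RPKM, and Nubpl, which delivers iron-sulfur clusters, the lowest at 1.06 ± 0.167. Ndufaf8 and Tmem126b had the largest SDs of log2 CPM, 0.76 and 0.58. They ran in opposite directions in mouse 11, with 9.16 RPKM for Ndufaf8 against 2.54 to 6.47 in the others, and 1.42 RPKM for Tmem126b against 2.41 to 4.56.

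Of 10 genes encoding transcriptional regulators of mitochondrial genes, 0 were called, and their mean deviations lay between -0.12 in mouse 11 and 0.06 in mouse 10. With trends removed, mouse 11 turned to the highest of the 5 mice at 0.07 and mouse 7 was lowest at -0.07. Yy1, whose element is printed above, had 20.3 ± 3.02 RPKM, Nrf1 2.05 ± 0.141 and the coactivator Ppargc1a 11.5 ± 1.29. The 4 genes with the YY1 element deviated by -0.05, 0.06, -0.15, -0.21 and 0.35, in the same order of mice as the whole set. Esrra, an orphan nuclear receptor, was highest in mouse 11 at 13.8 RPKM against 6.59 to 8.71 in the others. Gabpa, the DNA-binding part of GABP, was lowest there at 2.74 RPKM against 4.71 to 6.40.

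The mitochondrial genome encodes the remaining 7 core subunits, which form the proton-pumping part of the membrane arm. Of these, 5 had counts, with means of 2719 ± 171 RPKM for mt-Nd1, 2869.9 ± 407 for mt-Nd2, 1341 ± 181 for mt-Nd4, 2699.9 ± 213 for mt-Nd5 and 2823 ± 474 for mt-Nd6. mt-Nd3 and mt-Nd4l are listed at 0 in every library. mt-Nd6 lies on the strand opposite to the others, and with the strand setting not given its reads cannot be told apart from those of the other strand. The 5 genes summed to 11189, 13001, 12974, 11951 and 13153 RPKM, which is 8.21, 8.34, 10.1, 10 and 8.0 times the sum of the 37 nuclear genes. The ratio was highest in mice 9 and 10, the 2 with the lowest nuclear sums. On the log2 scale the nuclear to mitochondrial ratio was -3.15 ± 0.16 (n = 5), or a mean fold of 8.93 ± 1.03 in favour of the mitochondrial genes; with the principal transcript length the log2 ratio was -2.48.

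Annotated copies of these genes held few counts. At 95% identity over at least 50% of the length, 4 subunit genes had an annotated copy, all processed pseudogenes: Gm6444 for Ndufb11, Gm12251 for Ndufs3, BC002163 for Ndufs5 and Ndufs6b for Ndufs6. Their mean counts were 0.4 to 3.8, beside 122.0 to 980.2 for the parent genes, and adding them left the share at 0.206%. Reads that match both a gene and its copy were not measured. The exons of 14 subunit genes overlap a gene on the opposite strand. The largest overlaps were 39.0% of Ndufb6 with Smim27, 30.0% of Ndufa13 with Tssk6, 12.9% of Ndufb11 with Rbm10 and 12.3% of Ndufb5 with Mrpl47. Without these 14 genes the SD over mice of the mean deviation was 0.24, beside 0.22 with them.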

How the data were processed

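Total RNA from brain was made, per the labels, into mRNA libraries with an Illumina multiplexed kit. For the same 5 libraries the authors deposited raw counts per Ensembl gene and RPKM. GRCm38, featureCounts 1.4.6-p4, STAR 2.4.1d and CASAVA 1.7 are listed in the submitters' processing notes. Their settings, the annotation release, strand use and read filters are not given in the sources used here.

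Among 12729 well-counted genes, the deposited RPKM values fitted their own library's total for 0 genes within 1% and totals taken in turn down the table for all 12729. RPKM were therefore recomputed from the deposited counts, with each library's own total and the implied gene length. Symbols, coordinates, gene types, GC content and principal transcripts (APPRIS) come from GENCODE M21, which matched 47224 of 47729 identifiers; the rest held 0.077% of counts. The M21 exon length matched 74.6% of the lengths checked to within 1%. Promoter windows are from RefSeq (GRCm38.p6), and copies were found with blastn 2.17.0.

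Library totals were 15549967, 15392006, 15665819, 16044378 and 18723390 counts in mice 7 to 11; intervals cover counting error only. Variation between mice was tested with edgeR 4.0.16 and limma 3.58.1 in R 4.3.3: an intercept-only quasi-likelihood fit with TMM scaling to the 16318 genes whose mean count was 10 or more, each dispersion compared with a robust F distribution along the mean. The script was tested on simulated data. Deviations use log2 CPM with a prior count of 1. Trends were removed with loess fits (span 0.3) on GC content and log exon length. Dixon's criterion for 5 values (0.71) marked a mouse far from the others.

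The genes and lists were chosen with earlier results of these data known. Every subunit gene may be named with its level. Values in each mouse are given for the highest and lowest of each module, the 5 with the largest and the 3 with the smallest SD, those past Dixon's criterion, both X-linked genes and Ndufa4; the assembly factors and regulators named with values were the extremes, chosen after their values were seen. DESeq2 1.42.0 size factors, other filters, other lengths and leaving out each mouse were alternatives. The values of 1 subunit gene are not reported here, although it is in the counts and means of the set. No column of per-sample values was left unused.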

Additional observations from a re-analysis of the deposited data

Results flagged for a closer look

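Of 42 values examined (the 37 genes and 5 sums), 6 had a mouse whose gap to the nearest other mouse took more of the whole range than Dixon's limit for 5 values allows. Chance alone gives this for about 1 in 20 groups of normal values, and the genes share their libraries, so the 6 are not independent. In 5 of the 6 the far value was the highest and came from mouse 11. Ndufv1, the NADH-binding core subunit, had 65.0 RPKM there, Ndufs7, next to the ubiquinone site, 50.6 RPKM, and the kinase-like Ndufa10 46.7 RPKM. The accessory subunits Ndufa12 and Ndufb8 had 30.1 and 25.4 RPKM in mouse 11. The sixth was Ndufb2, a small membrane subunit, with its lowest value of 3.54 RPKM in mouse 7. With GC and length trends removed, the deviation of mouse 11 went from 0.35 to -0.08 on the log2 scale for Ndufv1, from 0.79 to 0.17 for Ndufs7 and from 0.25 to 0.08 for Ndufa10, but was 0.68 for Ndufa12 and 1.0 for Ndufb8, against 0.86 before for both.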

How the results depend on the processing

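No subunit gene was called variable in any of the 11 alternatives, leaving out each mouse included. The main setting called no gene at all, so this stability carries little information on the subunit genes. Without a filter on low counts, 230 of 28335 genes were called, and without mouse 11 and with trends removed 2 of 16305, none of them a subunit gene. The SD over mice of the mean deviation was 0.11 to 0.25 over all alternatives, 0.16 without mouse 11. With the shortest principal transcript, chosen after the data were seen, the summed level moved from 1409 to 2241 RPKM. The log2 ratio to the mitochondrial genes moved from -3.15 to -2.48, and 22 rather than 15 genes stood in the top 10%. Without mt-Nd4, also added later, the ratio was -2.98. It was not computed without mt-Nd6, whose reads cannot be told apart from those of the other strand. Leaving out each mouse gave sums of 1349.9 to 1463 RPKM, shares of 0.198% to 0.211%, 15 to 17 genes in the top 10% and ratios of -3.19 to -3.11. The level of single genes moved by over 1 SD for 23 of 37 genes with the principal transcript and for 6 with the M21 exon length. No paired analysis was possible because the labels give a single group. Precision was limited by the 5 mice and, for the least counted subunit gene, by 98 counts in a library.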
